A study of Mus musculus with 23 samples.

Results

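The genes described here were 32 components and feedback inhibitors of Toll-like receptor 4 (TLR4) signalling, measured in bone marrow-derived macrophages (BMDM) that did or did not carry the kinases MK2 and MK3. A member was taken up by name, from a fixed list of pathway genes, when a probe of the deposited scanner files carried a RefSeq or GenBank identifier that mapped to it. All 32 of 32 listed genes were found, among 26014 gene entries measured on the array. Together they had 47 probes, with 1 probe for 20 genes and several for 12 genes.

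The series held 23 one-colour Agilent arrays, one for each RNA sample, in 6 groups of genotype and treatment. BMDM came from wild-type (wt) mice, from mice lacking MK2 (MK2-/-) and from mice lacking both MK2 and MK3 (MK2/3-/-). Cells were kept in medium or stimulated with 100 ng/ml lipopolysaccharide (LPS), the TLR4 ligand, and both kinds of culture were harvested at 120 min. Each group had 4 arrays, other than MK2-/- BMDM in medium, which had 3. All mice were males on a C57BL/6 background, aged 12 to 13 weeks for wt, 10 to 13 weeks for MK2-/- and 11 to 14 weeks for MK2/3-/-. The knockouts were constitutive and not restricted to macrophages, the marrow cells were differentiated with M-CSF, and replicates were described as independent experiments.

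TLR4 recognises LPS together with its co-receptors CD14 and MD-2, and it passes the signal on through the adaptors MyD88 with TIRAP and TRIF with TRAM. IRAK kinases and TRAF ubiquitin ligases then bring in the TAK1 and IKK kinase complexes, which release NF-κB and start MAP kinase cascades, while TBK1 and IKKε serve the interferon branch. In macrophages many of the genes that limit this pathway, such as the ubiquitin-editing enzyme A20 and its binding partners, are themselves switched on by it.

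Levels are given as log2 signal after quantile normalization of the arrays, so that a difference of 1 is a doubling. They compare a gene between arrays and not one gene with another, because probes differ in brightness. Where a gene had several probes, the probe that LPS raised most in wt BMDM was used. That choice rests on the wt arrays that also test the rise, so it leans towards larger wt values. With the probes so chosen, 31 of the 32 members were well above background on all 23 arrays, and the probe of Traf2 was so on 22. The deleted genes followed the labels. After LPS, Mapkapk2 (MK2) was 7.02-fold lower in MK2-/- and 8.04-fold lower in MK2/3-/- than in wt BMDM, and Mapkapk3 (MK3) was 9.88-fold lower in MK2/3-/- BMDM. In medium the same differences were 9.9-fold, 11.3-fold and 3.08-fold. Each genotype lay on 1 slide of its own, so genotype and slide cannot be told apart, and medium and LPS arrays lay in different rows of each slide, so treatment and row cannot be told apart either. Of 8 macrophage markers 7 were measured, and all 7 were well above background on every array. So were 4 of 5 neutrophil and precursor markers (S100a8, S100a9, Elane and Camp), 2 of 3 stromal, 1 of 4 dendritic cell and 1 of 3 T cell markers (Cd3e). S100a9 ran from 7.16 to 13.32 among the MK2/3-/- LPS arrays. Of the 7 macrophage markers, Mertk and Fcgr1 fell most after LPS in wt BMDM, at 9.09 against 10.78 and at 11.97 against 13.24 on average. Lyz2 was at 16.73 against 17.24, Csf1r at 18.39 against 18.57 and Mrc1 at 11.25 against 11.37. Adgre1 (15.57 against 15.55) and Itgam (7.41 against 7.26) were slightly higher after LPS. The part of other cells in the results was not tested. The share of probes well above background was 56.2 to 60.8% in wt, 49.6 to 55.7% in MK2-/- and 47.5 to 69.1% in MK2/3-/- arrays. Both ends of this range came from MK2/3-/- medium arrays, those of replicates 1 and 2.

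The first question was which of these genes responded to LPS. In wt BMDM 24 of the 32 members passed an adjusted p of 0.05 by limma, 23 higher and 1 lower, which is 75% of the members, against 17.1% of all gene entries (8.26% higher, 8.89% lower). Over the entries detected on every array, that is well above background there, the share was 28.2%. In MK2-/- BMDM 21 members rose and 1 fell, where 18.6% of all entries were called (8.48% higher, 10.1% lower). In MK2/3-/- BMDM 24 rose and 1 fell, where 24.9% were called (11.9% higher, 12.9% lower). The median LPS difference of the 32 members was 0.96, 1.12 and 1.30 on the log2 scale for wt, MK2-/- and MK2/3-/- BMDM, whereas the medians over all entries were 0.01, -0.01 and -0.02. With the culture as a block, 27, 24 and 26 members were called for LPS in the 3 genotypes, against 22, 23.7 and 30.9% of entries. Standard errors of the differences ran from 0.11 to 0.38. In all 32 members the difference had the same sign in the 3 genotypes. There were 19 members called in all 3 genotypes, 18 of them higher and Tab1 lower, and 17 of these 19 were also called in each of 37 other processing settings. How many of all entries kept 1 sign, or were called in all 3 genotypes or in every setting, was not counted. For 5 members, Ly96, Irak1, Irak4, Chuk and Cyld, no genotype gave a call. In bulk RNA a change in the number of expressing cells and a change in RNA per cell cannot be told apart. Of the 4 dendritic cell markers, Zbtb46 and Ccr7 were higher on average after LPS in wt BMDM, at 10.14 against 4.64 and at 8.87 against 5.67, while Flt3 (5.63 against 5.57) and Siglech (5.04 against 5.01) were level. The mean signal of the 4 per array was 4.53 to 6.25 in wt medium and 6.67 to 8.28 after LPS, 5.39 to 6.41 and 7.22 to 8.12 in MK2-/- BMDM, and 4.97 to 6.21 and 6.71 to 7.88 in MK2/3-/- BMDM. The part of these cells in the results was not tested.

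**Figure D1:**
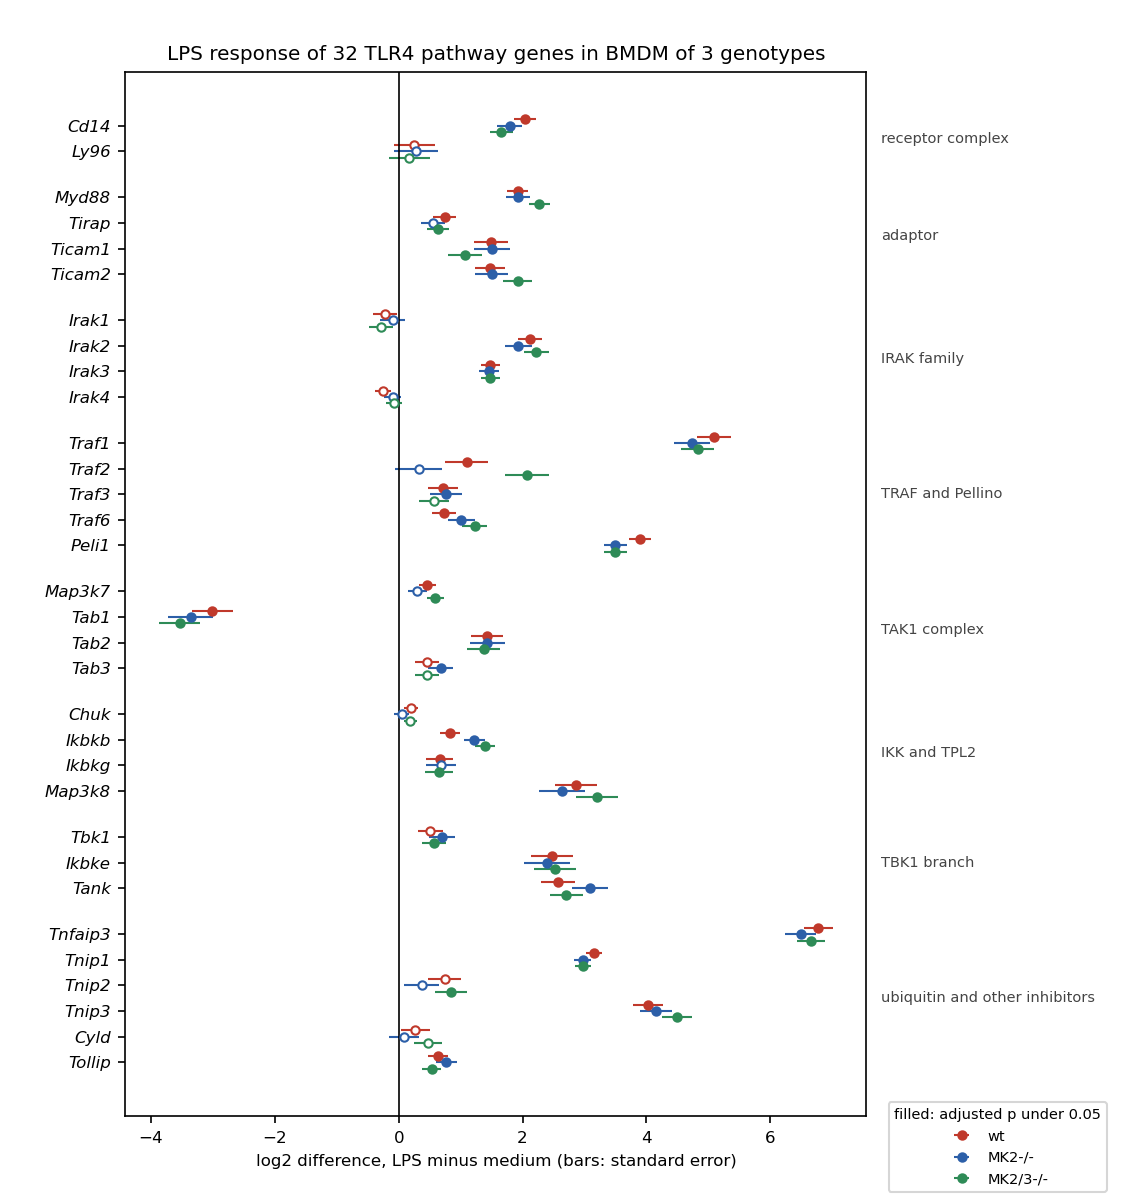
LPS minus medium for each of the 32 members in the 3 genotypes, as log2 difference with its standard error, with filled points for an adjusted p under 0.05. Tnfaip3, Traf1, Tnip3 and Peli1 lie farthest to the right, and Tab1 is the one member with filled points left of 0.

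The largest rise, that of Tnfaip3, was found among the feedback inhibitors. Of the 6 ubiquitin-related and other inhibitors, the numbers that rose were 4, 4 and 5 for wt, MK2-/- and MK2/3-/- BMDM. Tnfaip3, Tnip1 and Tnip3 are shown with their promoter windows because they rose most in this group and because all 3 windows hold letters of the NF-κB consensus. The windows are RefSeq sequences of the mouse build GRCm38.p6, from 250 bases before to 50 after the gene start, written 5′ to 3′ on the gene's strand, with capitals for the consensus letters on either strand. That of Tnfaip3 is chr10:19015361-19015660 on the minus strand, with matches that begin 125 and 12 bases before the start. That of Tnip1 is chr11:54962891-54963190 on the minus strand, where 3 overlapping matches begin 58, 57 and 56 bases before the start. That of Tnip3 is chr6:65590148-65590447 on the plus strand, with 1 match that begins 54 bases before the start.
Tnfaip3: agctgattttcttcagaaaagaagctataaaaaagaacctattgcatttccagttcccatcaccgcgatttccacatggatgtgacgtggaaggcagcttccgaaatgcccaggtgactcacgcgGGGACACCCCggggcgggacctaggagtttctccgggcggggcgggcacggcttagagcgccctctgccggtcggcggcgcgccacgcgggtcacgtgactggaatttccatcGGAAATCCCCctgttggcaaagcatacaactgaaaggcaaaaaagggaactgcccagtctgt
Tnip1: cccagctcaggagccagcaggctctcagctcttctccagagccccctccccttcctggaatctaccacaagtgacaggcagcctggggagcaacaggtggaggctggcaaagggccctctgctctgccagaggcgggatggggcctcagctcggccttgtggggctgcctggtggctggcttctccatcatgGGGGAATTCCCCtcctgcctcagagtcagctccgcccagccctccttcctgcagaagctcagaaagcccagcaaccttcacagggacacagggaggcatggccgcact
Tnip3: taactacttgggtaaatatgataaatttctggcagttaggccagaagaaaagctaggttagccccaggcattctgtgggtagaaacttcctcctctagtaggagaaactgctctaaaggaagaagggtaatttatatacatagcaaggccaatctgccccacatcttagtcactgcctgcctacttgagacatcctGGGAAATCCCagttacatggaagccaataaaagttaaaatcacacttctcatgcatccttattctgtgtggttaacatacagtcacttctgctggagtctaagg

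The consensus was searched by its usual 10-letter form on both strands. It occurred in 8.46% of 32851 promoter windows of the mouse table, and in 12 of the 37 windows of the 26 members that the table covered, where overlapping windows of Tank and of Irak1 hold the same letters more than once. By gene it was found in 4 of 8 members that rose by at least 2 log2 units in wt BMDM (Tank, Tnfaip3, Tnip1 and Tnip3), in 2 of 11 that rose by less (Map3k7 and Traf3) and in 2 of 7 without a call (Cyld and Irak1). A further window of Tnfaip3, chr10:19011914-19012213, held none. The AP-1 letters TGANTCA were found in 7.81% of all windows, in 7 of the 37 windows of members and in 4 of the 26 members, Tnfaip3, Tank, Ikbke and Ikbkg. Such matches are letters in a window and not evidence of binding. The 8.46 and 7.81% are shares of windows, whereas a gene with several windows had more chances of a match. Shares by gene over all genes were not computed, so the counts by gene have no like background.

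Tnfaip3 (NM_009397) encodes A20, which removes and adds ubiquitin chains on pathway proteins and thereby limits NF-κB activation. In wt BMDM its log2 signals were 10.11, 10.43, 10.11 and 10.14 in medium and 16.87, 17.49, 17.01 and 16.56 after LPS. For MK2-/- BMDM the arrays read 10.09, 10.98 and 10.71 in medium and 16.98, 17.31, 16.71 and 17.32 after LPS. For MK2/3-/- BMDM the arrays read 10.58, 10.47, 9.92 and 10.35 in medium and 17.25, 17.32, 16.56 and 16.8 after LPS. Every LPS array lay above every medium array. The induction was 110-fold in wt, 89.9-fold in MK2-/- and 101-fold in MK2/3-/- BMDM, with log2 differences of 6.78, 6.49 and 6.66 (SE 0.23, 0.25 and 0.23, limma adjusted p = 1.6e-13, 1.56e-12 and 1.95e-13). It was the largest change of any member in each genotype.

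The TNIP proteins bind A20 and ubiquitin chains and restrain NF-κB. Tnip3 (NM_001001495) gave 7.88, 8, 7.84 and 7.89 in wt medium and 11.44, 11.8, 12.4 and 12.1 after LPS. The MK2-/- values were 7.72, 8.53 and 8.34 in medium and 11.91, 12.12, 12.41 and 12.99 after LPS. The MK2/3-/- values were 8.83, 8.25, 8.15 and 8.42 in medium and 13.11, 13.08, 12.83 and 12.63 after LPS. Medium and LPS arrays did not overlap, and the inductions were 16.4-, 17.9- and 22.6-fold (log2 4.03, 4.16 and 4.50, SE 0.24, 0.26 and 0.24). Tnip1 (NM_001199275) gave 14.01, 14.37, 14.18 and 14.4 in wt medium and 17.11, 17.46, 17.62 and 17.36 after LPS. It gave 14.71, 14.56 and 14.54 in medium and 17.51, 17.83, 17.47 and 17.51 after LPS in MK2-/- BMDM. It gave 14.63, 14.37, 14.15 and 14.39 in medium and 17.45, 17.42, 17.3 and 17.25 after LPS in MK2/3-/- BMDM. Its arrays were the most uniform of the strongly induced members, with SDs of at most 0.22 within a group, and the differences were 3.15, 2.97 and 2.97. Tnip2, the remaining family member, was called in MK2/3-/- BMDM alone (log2 0.85), with 0.74 in wt and 0.37 in MK2-/- BMDM. Tollip, which binds IRAK1 and dampens its activation, rose by 0.64, 0.77 and 0.53 with the probe used, but its other probes gave -0.12 and 0.08 in wt BMDM. For Cyld, a deubiquitinase of the pathway, the differences of 0.27, 0.08 and 0.47 passed no test.

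**Figure D2:**
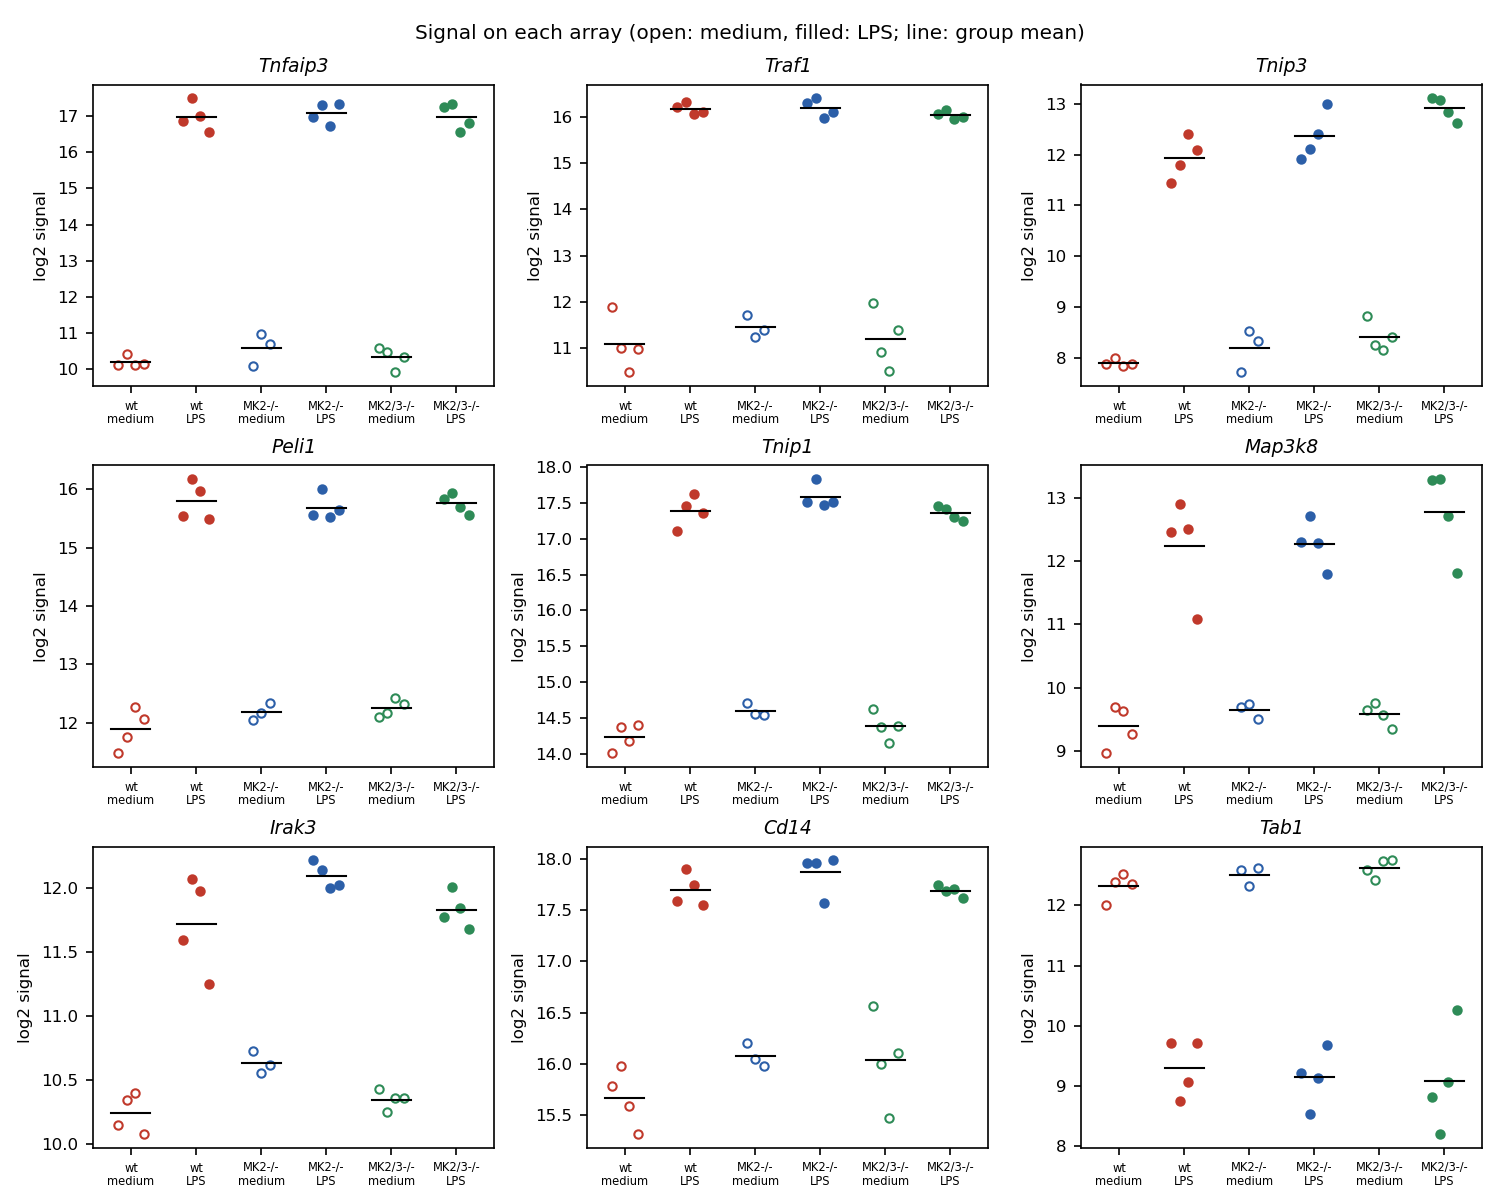
Log2 signal of 9 members on each of the 23 arrays, with open points for medium, filled points for LPS and a line for each group mean. In all 9 panels the LPS arrays of a genotype are clear of its medium arrays, above them in 8 panels and below them in that of Tab1.

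Of the receptor complex, Cd14 rose and Ly96 was not called. Cd14 (NM_009841), the co-receptor that hands LPS to TLR4, had log2 signals of 15.78, 15.98, 15.59 and 15.31 in wt medium and 17.59, 17.9, 17.75 and 17.55 after LPS. Values of 16.2, 16.05 and 15.98 in medium and 17.96, 17.96, 17.57 and 17.99 after LPS were measured in MK2-/- BMDM. Values of 16.56, 16, 15.47 and 16.1 in medium and 17.75, 17.69, 17.71 and 17.62 after LPS were measured in MK2/3-/- BMDM. The LPS arrays were above the medium arrays without overlap, by 2.04, 1.79 and 1.66 log2 units. Ly96, which encodes MD-2, differed by 0.25, 0.28 and 0.17, with 95% intervals from -0.45 to 0.95 in wt, from -0.48 to 1.03 in MK2-/- and from -0.53 to 0.87 in MK2/3-/- BMDM. Tlr4 itself is not a member and was named for its role after its values were seen. Its signal fell by 0.93, 1.04 and 0.74 in wt, MK2-/- and MK2/3-/- BMDM.

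The 4 adaptors all rose in wt and in MK2/3-/- BMDM, and 3 of them in MK2-/- BMDM. Myd88, the adaptor shared by most Toll-like receptors, had log2 signals of 12.46, 12.6, 12.61 and 12.25 in wt medium and 14.27, 14.79, 14.66 and 13.88 after LPS. It rose 3.78-fold in wt, 3.8-fold in MK2-/- and 4.82-fold in MK2/3-/- BMDM. Ticam1 (TRIF) rose by 1.49, 1.51 and 1.07 log2 units, and Ticam2 (TRAM), which links TRIF to TLR4, by 1.47, 1.50 and 1.92. Tirap, the bridge between MyD88 and TLR4, rose by 0.74 in wt and 0.64 in MK2/3-/- BMDM and gave 0.55 (adjusted p = 0.0514, limma) in MK2-/- BMDM.

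The IRAK family was split. Irak2 and Irak3 rose in each genotype, while Irak1 and Irak4, the kinases at the head of the cascade, were not called in any. Irak2 (NM_172161) had log2 signals of 7.97, 8.52, 8.65 and 8.45 in wt medium and 10.29, 11.01, 10.76 and 10.03 after LPS. In MK2-/- BMDM they were 8.67, 8.62 and 8.74 in medium and 10.6, 10.82, 10.43 and 10.58 after LPS. In MK2/3-/- BMDM they were 8.35, 8.73, 8.54 and 8.82 in medium and 11.1, 11.08, 10.43 and 10.7 after LPS. No medium array reached an LPS array, and the inductions were 4.36-, 3.81- and 4.65-fold. Irak3 (NM_028679) encodes IRAK-M, which lacks kinase activity and inhibits the others. Its signals were 10.15, 10.35, 10.4 and 10.08 in wt medium and 11.6, 12.07, 11.98 and 11.25 after LPS. The MK2-/- arrays gave 10.73, 10.56 and 10.62 in medium and 12.22, 12.14, 12 and 12.03 after LPS, and the MK2/3-/- arrays gave 10.43, 10.25, 10.36 and 10.36 in medium and 11.78, 12.01, 11.85 and 11.68 after LPS. The differences were nearly equal across genotypes, 1.48, 1.46 and 1.48 (adjusted p = 4.14e-07, 1.29e-06 and 2.77e-07, limma). Irak1 differed by -0.22, -0.10 and -0.29, and Irak4 by -0.25, -0.10 and -0.07.

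All 5 TRAF and Pellino members rose in wt BMDM, and 4 of 5 did in either knockout. Traf1 (NM_009421), a TRAF protein without a RING domain that is a known NF-κB target, had log2 signals of 11.88, 11.01, 10.48 and 10.98 in wt medium and 16.22, 16.31, 16.06 and 16.1 after LPS. For MK2-/- BMDM the arrays read 11.72, 11.25 and 11.4 in medium and 16.29, 16.4, 15.98 and 16.11 after LPS. For MK2/3-/- BMDM the arrays read 11.98, 10.91, 10.51 and 11.39 in medium and 16.05, 16.14, 15.95 and 15.99 after LPS. The medium arrays spread more than the LPS arrays in each genotype, and the inductions were 34-, 26.6- and 28.5-fold. Peli1 (NM_023324), a ubiquitin ligase that acts on IRAK proteins, gave 11.48, 11.76, 12.27 and 12.07 in wt medium and 15.54, 16.17, 15.96 and 15.49 after LPS. Values of 12.05, 12.16 and 12.34 in medium and 15.56, 16.01, 15.52 and 15.65 after LPS were measured in MK2-/- BMDM. Values of 12.1, 12.17, 12.43 and 12.33 in medium and 15.83, 15.94, 15.7 and 15.56 after LPS were measured in MK2/3-/- BMDM. Its LPS arrays all lay above its medium arrays, by 3.90, 3.50 and 3.50 log2 units. Traf6, the ligase downstream of the IRAKs, rose by 0.73, 1.01 and 1.23. Traf3, which serves the interferon branch, rose by 0.72 in wt and 0.76 in MK2-/- BMDM and gave 0.57 in MK2/3-/- BMDM. Each of these Traf3 calls was lost when any one of 17 of the 23 arrays was left out. Traf2 rose by 1.1 in wt and 2.07 in MK2/3-/- BMDM, with 0.32 in MK2-/- BMDM, on the dimmer of its probes.

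Within the TAK1 complex, Tab1 was the one member of the 32 that fell. Tab1 (NM_025609) encodes the subunit that activates TAK1, and 1 probe measured it. In wt BMDM its log2 signals were 12.01, 12.38, 12.52 and 12.36 in medium and 9.71, 8.75, 9.06 and 9.71 after LPS. In MK2-/- BMDM they were 12.58, 12.32 and 12.62 in medium and 9.22, 8.54, 9.13 and 9.68 after LPS. In MK2/3-/- BMDM they were 12.59, 12.42, 12.74 and 12.75 in medium and 8.81, 8.2, 9.06 and 10.27 after LPS. Every LPS array lay below every medium array. Expression was 8.06-fold lower after LPS in wt, 10.3-fold lower in MK2-/- and 11.6-fold lower in MK2/3-/- BMDM (SE on the log2 scale 0.33, 0.36 and 0.33, adjusted p = 1.51e-06, 9.54e-07 and 1.24e-07, limma). The ubiquitin-binding subunit Tab2 rose by 1.42, 1.43 and 1.37. Its relative Tab3 was called in MK2-/- BMDM (0.68) and gave 0.46 in wt and 0.46 in MK2/3-/- BMDM. Map3k7, the TAK1 kinase, rose by 0.46 in wt and 0.59 in MK2/3-/- BMDM, with 0.30 in MK2-/- BMDM.

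In the group of IKK and TPL2, Map3k8 changed most. Map3k8 (NM_007746) encodes TPL2, the kinase that starts the ERK cascade in LPS-treated macrophages. Its signals in wt BMDM were 8.96, 9.69, 9.63 and 9.27 in medium and 12.47, 12.91, 12.51 and 11.08 after LPS. The MK2-/- arrays gave 9.69, 9.74 and 9.5 in medium and 12.3, 12.72, 12.29 and 11.8 after LPS, and the MK2/3-/- arrays gave 9.64, 9.75, 9.57 and 9.35 in medium and 13.29, 13.3, 12.72 and 11.82 after LPS. The array of replicate 4 was the lowest LPS array of each genotype, yet medium and LPS arrays did not overlap. The inductions were 7.24-, 6.21- and 9.23-fold. Ikbkb, the catalytic subunit IKKβ, rose by 0.83, 1.22 and 1.39 log2 units. Ikbkg, the regulatory subunit NEMO, rose by 0.66 in wt and 0.65 in MK2/3-/- BMDM and gave 0.68 in MK2-/- BMDM. The wt call of Ikbkg was lost when any one of 18 of the 23 arrays was left out. Chuk (IKKα) was not called, with differences of 0.20, 0.05 and 0.19.

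In the TBK1 branch, the scaffold gene Tank and the kinase gene Ikbke rose in each genotype, and Tbk1 was called in the knockouts. Tank (NM_001164071), whose product binds TBK1 and TRAF proteins, had log2 signals of 7.98, 8.64, 8.19 and 8.02 in wt medium and 10.66, 11.23, 10.84 and 10.4 after LPS. For MK2-/- BMDM the arrays read 8.06, 8.25 and 8.05 in medium and 11.35, 11.21, 10.93 and 11.34 after LPS. For MK2/3-/- BMDM the arrays read 8.53, 8.7, 7.83 and 8.41 in medium and 11.71, 11.49, 10.21 and 10.91 after LPS. No array of one treatment reached those of the other, and the differences were 2.57, 3.09 and 2.71. Ikbke (NM_019777), the IKKε gene, gave 9.4, 9.85, 9.19 and 8.69 in wt medium and 11.97, 12.23, 11.71 and 11.14 after LPS. Values of 9.82, 9.85 and 9.34 in medium and 12.52, 12.43, 11.88 and 11.44 after LPS were measured in MK2-/- BMDM. Values of 9.99, 9.4, 9.02 and 8.98 in medium and 12.27, 12.55, 11.45 and 11.19 after LPS were measured in MK2/3-/- BMDM. The treatments were again clear of each other, with inductions of 5.58-, 5.28- and 5.72-fold. Ikbke (chr1:131254600-131279601, GRCm38.p6) lies 0.157 Mb from Mapkapk2, the gene deleted in both knockouts. Its knockout minus wt differences after LPS were 0.31 (95% interval -0.41 to 1.02) in MK2-/- and 0.10 (-0.61 to 0.82) in MK2/3-/- BMDM. Tbk1 rose by 0.70 in MK2-/- and 0.57 in MK2/3-/- BMDM and gave 0.51 (adjusted p = 0.093, limma) in wt BMDM.

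The probes of the 12 members with several did not all give like values. In wt BMDM the probes of Tank gave 2.57 and 2.55, those of Tnip1 3.15 and 2.96, and those of Traf2 1.1 and 1.05. The second probe of Traf2, which was brighter, gave 0.97 in MK2-/- and 0.99 in MK2/3-/- BMDM, so the spread of Traf2 between genotypes was seen with the dim probe alone. Probes of Irak2 differed more, with 2.12 and 0.93, as did those of Tnip3, with 4.03 and 2.50. For Cyld one probe gave 0.27 and the other -0.50, and for Tollip the probe used gave 0.64 while the others gave -0.12 and 0.08. A rise of Tollip was therefore not shared by its probes. With the probe of highest mean signal, or with the mean over all probes, 22 members were called for LPS in wt BMDM. Of all entries, 4648 and 4600 were called under these rules.

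**Figure D3:**
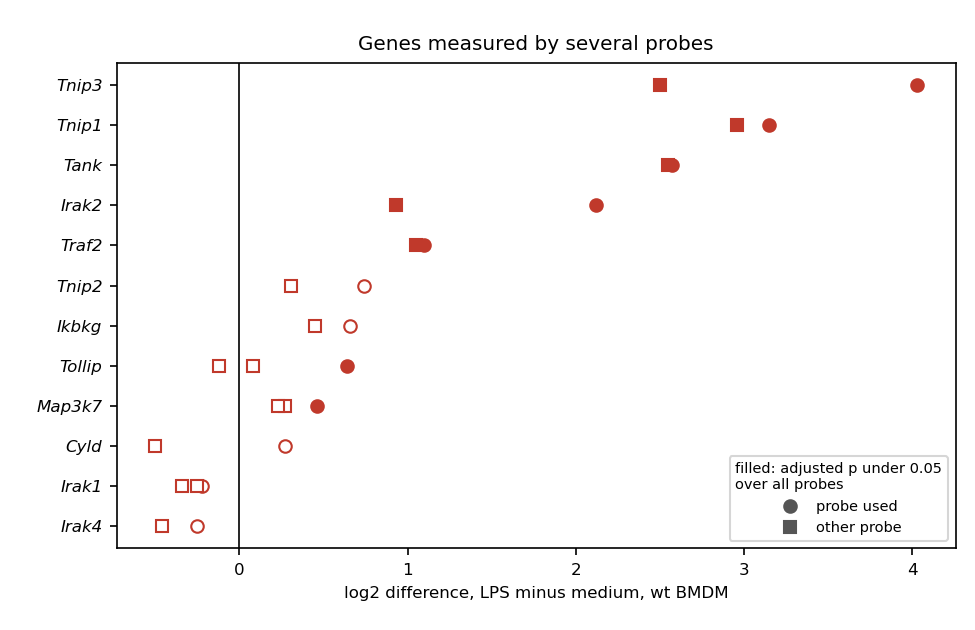
LPS minus medium in wt BMDM, as log2 difference, for each probe of the 12 members with several probes. The probes of Tank and Traf2 nearly coincide, whereas those of Tnip3 and Irak2 lie over 1 log2 unit apart.

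The next question was whether the level of these genes after LPS depended on MK2 or MK3. Between MK2-/- and wt BMDM after LPS none of the 32 members was called by limma, with 0.0308% of all entries called. At an unadjusted p under 0.05 there were 5 of the 32 members, a larger share than the 7.5% of all entries. The methods' t-test with Benjamini-Hochberg adjustment, which the study's methods do not name, gave 0. The differences ran from -0.42 to 0.52, with 31 of 32 within 0.5 of 0. Their median was 0.11, against 0.01 over all entries, with 24 members higher and 8 lower. Between MK2/3-/- and wt BMDM after LPS 1 of the 32 members was called, Tnip3, which was higher, while 1.64% of all entries were called (0.773% higher). At an unadjusted p under 0.05 there were 5 of the 32 members, against 13.6% of all entries, and the methods' t-test with adjustment gave 0. The differences ran from -0.53 to 0.98, with a median of 0.08, and for 28 of the 32 members the 95% interval lay within 1 log2 unit of 0 on either side. MK2/3-/- and MK2-/- BMDM after LPS differed in 0 called members (0.161% of entries), with 1 at an unadjusted p under 0.05, Tnip3 (7.91% of entries), and 0 by the methods' t-test with adjustment. The comparisons of the knockouts with wt share the wt arrays.

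**Figure D4:**
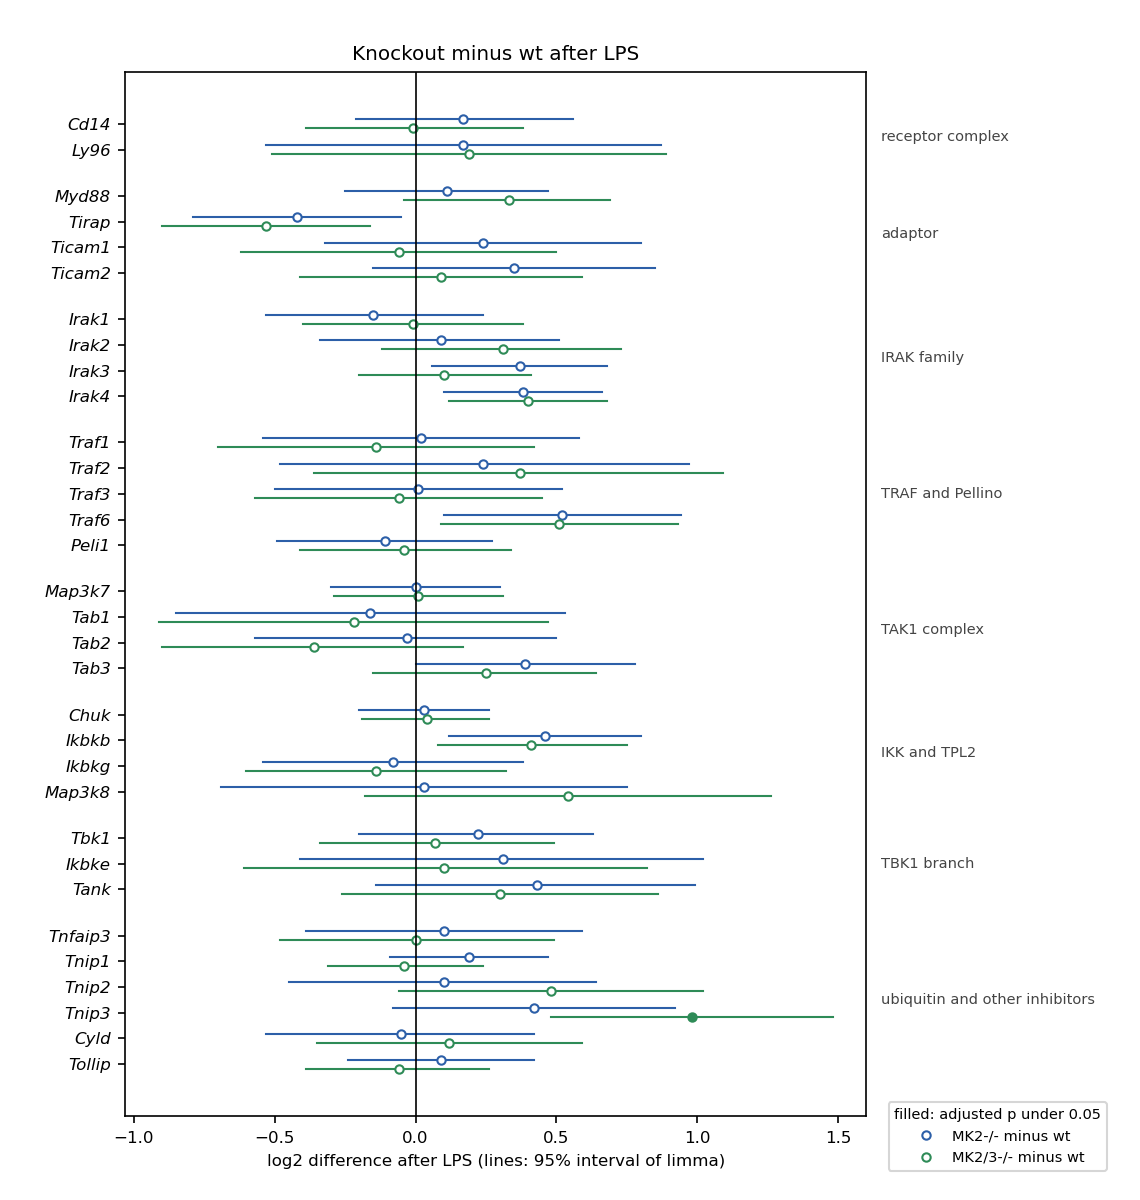
MK2-/- minus wt and MK2/3-/- minus wt after LPS for the 32 members, as log2 difference with the 95% interval of limma, with filled points for an adjusted p under 0.05. One point is filled, that of Tnip3 in MK2/3-/- BMDM, and most intervals cross 0.

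Tnip3 after LPS was lowest in wt and highest in MK2/3-/- BMDM. The values already given were 11.44 to 12.4 in wt, 11.91 to 12.99 in MK2-/- and 12.63 to 13.11 in MK2/3-/- BMDM. The MK2/3-/- arrays all lay above the wt arrays, and MK2-/- arrays overlapped with both. MK2/3-/- BMDM were 1.97-fold higher than wt (log2 0.98, SE 0.24, 95% interval 0.48 to 1.48, limma adjusted p = 0.0434, exact permutation p = 0.0286, n = 4 and 4), and it was also the one member called with the culture as a block (1.66% of entries). MK2-/- BMDM differed from wt by 0.42 (-0.08 to 0.92, limma adjusted p = 0.703), and MK2/3-/- BMDM lay 0.56 above MK2-/- BMDM (0.06 to 1.06, adjusted p = 0.554). In medium the MK2/3-/- arrays were above the wt arrays as well, by 0.51 without overlap (limma adjusted p = 1, exact permutation p = 0.0286, the smallest that 4 against 4 arrays allow). The LPS induction of Tnip3 in the matched cultures was 3.56, 3.8, 4.56 and 4.2 in wt and 4.28, 4.83, 4.68 and 4.2 in MK2/3-/- BMDM, and the difference of inductions was 0.47 (-0.24 to 1.18, adjusted p = 1).

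The Tnip3 call was close to the threshold. Without any one of 15 of the 23 arrays it was lost, with adjusted p from 0.0229 to 0.171 and differences from 0.82 to 1.14 over all 23 omissions. It was also lost with the methods' t-test (adjusted p = 0.343), with the compared groups alone in the fit (0.254) and with the mean over both probes (0.71, adjusted p = 0.154). It held only without wt LPS replicate 3, MK2-/- LPS replicates 1, 2 or 4, MK2-/- medium replicates 1 or 2, MK2/3-/- LPS replicate 4 or MK2/3-/- medium replicate 1. The second and brighter Tnip3 probe gave 0.44 for MK2/3-/- against wt after LPS (adjusted p = 0.583 over all probes by limma), where the first gave an adjusted p of 0.0517 on that scale. Stromal markers were higher on average in wt arrays, with overlapping ranges. After LPS the mean signal of the 3 markers was 7.71 to 12.14 per wt array, 6.78 to 10.02 per MK2-/- array and 6.19 to 10.8 per MK2/3-/- array, carried by Col1a1 and Col1a2, while Pdgfra was mostly not well above background. Their part in the result was not tested.

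Traf6, Ikbkb, Irak4 and Tirap differed from wt in both knockouts after LPS at an unadjusted p under 0.05 alone, with overlapping arrays. Traf6 was 8.9, 8.94, 9.3 and 9.23 in wt BMDM after LPS, 9.47, 9.3, 9.72 and 9.97 in MK2-/- and 9.71, 9.14, 9.7 and 9.85 in MK2/3-/- BMDM, which is 0.52 and 0.51 above wt in the mean. Ikbkb was 11.81, 12.33, 12.05 and 11.64 in wt, 12.5, 12.58, 12.28 and 12.29 in MK2-/- and 12.56, 12.67, 11.99 and 12.26 in MK2/3-/- BMDM, with differences of 0.46 and 0.41. Irak4 was 8.84, 8.81, 9.36 and 9.11 in wt, 9.38, 9.31, 9.46 and 9.5 in MK2-/- and 9.32, 9.39, 9.62 and 9.4 in MK2/3-/- BMDM, with differences of 0.38 and 0.40. These 3 were higher in both knockouts than in wt, and both knockouts share the same wt arrays. Tirap went the other way, with 11.4, 11.65, 11.64 and 10.92 in wt, 10.98, 11.35, 11.05 and 10.54 in MK2-/- and 10.95, 10.99, 11.03 and 10.51 in MK2/3-/- BMDM, differences of -0.42 and -0.53. The smallest adjusted p among these was 0.156, for Tirap in MK2/3-/- BMDM by limma. In medium Tirap was lower too, at 10.44 in MK2-/- and 10.23 in MK2/3-/- against 10.66 in wt BMDM on average. The MK2/3-/- medium arrays of Tirap lay below the wt ones without overlap. Medium means of Irak4 were 9.51 and 9.5 against 9.28, of Traf6 8.6 and 8.37 against 8.36, and of Ikbkb 11.19 and 10.98 against 11.13. The files of all 3 genotypes carry the preparation letters a, b, c and e, though the sources used here do not state that a letter marks a shared experiment. Between LPS arrays of the same letter, Tirap was lower and Irak4 and Traf6 were higher in 4 of 4 pairs for each knockout, Ikbkb was higher in 4 of 4 for MK2-/- and 3 of 4 for MK2/3-/- BMDM, and the lowest difference of Irak4 was 0.11. These 4 genes were singled out by their differences on the same arrays, so their like signs are no separate support. Tab3, also singled out on these arrays, was higher in 4 of 4 pairs for each knockout. Ikbke and Irak3 were higher in 4 of 4 for MK2-/-, and Myd88, Map3k8 and Tnip3 for MK2/3-/- BMDM. Tab2 and Traf1 were lower in 4 of 4 for MK2/3-/- BMDM. How many of all entries had like signs was not counted. With the letter as a term in the fit, Traf6 was called beside Tnip3 in MK2/3-/- against wt BMDM (limma adjusted p = 0.0271 and 0.0387), where 3.65% of all entries were called. Irak3 was 0.37 higher in MK2-/- than in wt BMDM after LPS and 0.40 higher in medium, with limma adjusted p of 0.616 and 1, and its medium arrays did not overlap. Medium arrays of Tnip1 did not overlap either, at 14.54 to 14.71 in MK2-/- against 14.01 to 14.4 in wt BMDM. Tab3 was 0.39 higher in MK2-/- than in wt BMDM after LPS without overlap of the arrays (unadjusted p = 0.0526, limma adjusted p = 0.662).

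**Figure D5:**
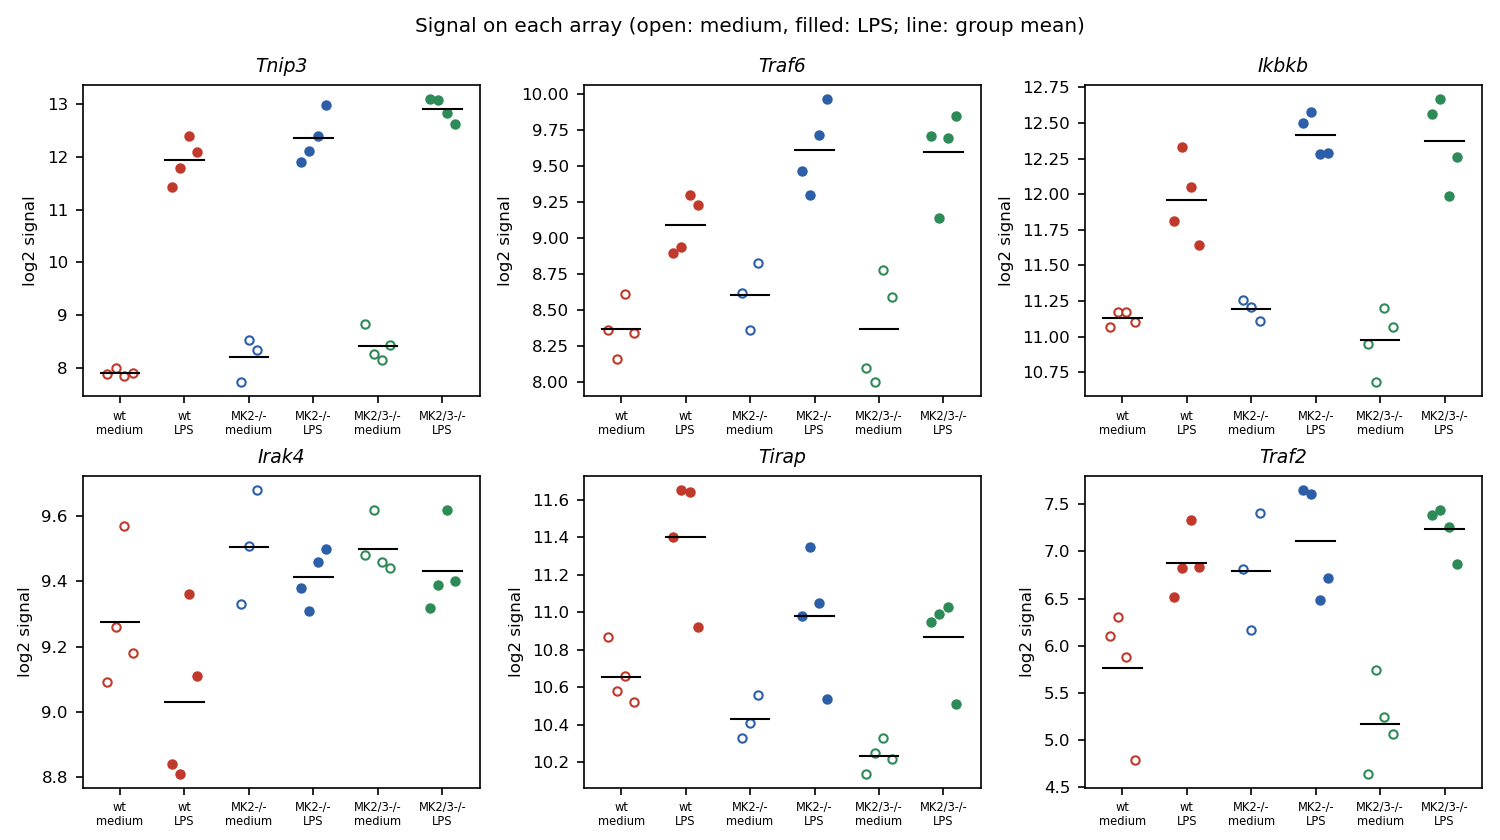
Log2 signal of Tnip3, Traf6, Ikbkb, Irak4, Tirap and Traf2 on each of the 23 arrays, with open points for medium, filled points for LPS and a line for each group mean. The LPS arrays of Tnip3 lie at 12.63 to 13.11 in MK2/3-/- BMDM, above the 4 wt arrays, and the LPS arrays of the other 5 genes overlap between the genotypes.

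In medium no member was called in any of the 3 genotype comparisons by limma, with 0.00769% of entries called for MK2-/- against wt, 0.0769% for MK2/3-/- against wt and 0.0461% for MK2/3-/- against MK2-/- BMDM. At an unadjusted p under 0.05 there were 3, 2 and 2 members, against 3.42, 4.63 and 3.57% of entries, and the methods' t-test with adjustment gave 0 in each. The LPS response itself was also compared between genotypes. No member was called in these interaction terms, with 0.00384% of entries for MK2-/- against wt, 0.0115% for MK2/3-/- against wt and 0% for MK2/3-/- against MK2-/- BMDM. Unadjusted counts were 0, 1 and 1, against 1.91, 4.54 and 2.88% of entries, and the methods' t-test with adjustment gave 0. The first was Ikbkb, whose rise was 0.57 larger in MK2/3-/- than in wt BMDM (adjusted p = 0.968, limma). The other was Traf2, whose rise on the dim probe was 1.75 larger in MK2/3-/- than in MK2-/- BMDM (adjusted p = 1), and 0.02 larger on the bright probe.

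Further genes of the pathway, taken from a list that excluded the members, are given for context. Of all entries, 8.26, 8.48 and 11.9% rose and 8.89, 10.1 and 12.9% fell on LPS in wt, MK2-/- and MK2/3-/- BMDM. Of 34 other components, such as receptors, NF-κB subunits and kinases, 11 rose and 4 fell in wt, 13 rose and 5 fell in MK2-/- and 15 rose and 3 fell in MK2/3-/- BMDM, with median differences of 0.21, 0.25 and 0.39. In wt BMDM the largest were Rel, an NF-κB subunit (4.77), Fos (-3.14) and Nfkb2 (2.84). After LPS 2 of the 34 were higher in MK2/3-/- than in wt BMDM, Jun by 2.12 (adjusted p = 0.0165, limma) and Ripk1 by 1.00 (0.0397), against 0.773% of all entries. Of 20 other feedback inhibitors 11 rose and 2 fell in wt and in MK2-/- BMDM, and 13 rose and 2 fell in MK2/3-/- BMDM, with medians of 2.42, 2.02 and 2.32. The cytokine signalling inhibitors Socs3 (7.85) and Socs1 (7.48) and the nuclear IκB gene Nfkbiz (5.40) rose most in wt BMDM, and Tnfaip8l2 and Otulin fell in each genotype. After LPS 1 of the 20 was higher in MK2/3-/- than in wt BMDM, the stress-induced repressor Atf3, by 1.40 (adjusted p = 0.00868, limma), against the same 0.773% of entries.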

How the data were processed

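Total RNA of 23 BMDM samples was hybridised to Agilent SurePrint G3 Mouse 8x60K one-colour arrays, and the authors scanned them and extracted spot values with Agilent Feature Extraction (version 11.0.1.1, grid build mm9, per the submitters' processing notes and the file headers). The deposited scanner files hold each spot's intensity, of which the processed signal, already background-subtracted by that software, was used. The authors' own values, a deposited table of log2 signal that was quantile-normalized and centred on the median of all samples, served as an alternative.

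Control spots and outlier flags were left out, and log2 intensities of replicate spots of 1 probe were averaged. The averages were then quantile-normalized, and names were assigned to probes through their RefSeq or GenBank identifiers. Of several probes of a gene, that with the largest rise after LPS in wt BMDM represented it, after the study's methods. Of 62976 spots, 55681 probes remained, 27509 of them named, giving 26014 gene entries, 20887 of them with a gene name, and each was tested. limma left out 258 missing values array by array. Group means of 6 groups were fitted with limma 3.58.1 in R 4.3.3 (lmFit, contrasts, eBayes), with two-sided tests and Benjamini-Hochberg adjustment over all entries at 0.05. Exact permutation tests over arrays were run per gene and cannot give less than 0.0286. The number of arrays limits the precision. Alternatives were scaling to the 75th percentile, normexp background correction, the deposited table, a signal floor, a filter on dim probes, other probe rules, fits on the compared groups alone, an intensity trend, culture as a block, the methods' t-test and the omission of each array. The preparation letter as a term across genotypes was added after seeing the data. The normexp alternative used median spot signals because mean signals were not among the columns of the files.

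Medium and LPS arrays of a genotype were paired as 1 culture by the preparation letter in the names of the deposited files, in which paired mice also had the same age in the labels. Deviations from group means correlated within all 11 pairs at 0.0657 to 0.566 over all genes (10 of 11 over 0.1), and at 0.359 to 0.776 over 12570 genes well above background (11 of 11 over 0.1). By letter and age, the third MK2-/- medium array goes with the fourth LPS array. That a letter marks a shared culture is not stated in the sources used here. Culture as a random block gave a consensus correlation of 0.241.

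The members and lists were chosen with earlier results of these data known. By the rule for named genes, values on every array were given for members called in a genotype comparison or interaction, for the 10 called members with the largest LPS change in wt BMDM, and for Tnfaip3, Irak3 and Cd14. Outside the lists of other pathway genes this rule covered the deleted genes and cell type markers, and in each list the 3 genes with the largest LPS change in wt BMDM. Genes singled out beyond it (Myd88 in wt BMDM, Traf6, Ikbkb, Irak4 and Tirap after LPS, and the genes that fell or differed by genotype in the lists) were chosen after their values were seen. The statistics were tested on simulated data. There the noise was independent between arrays, and the added changes were larger than any genotype difference of a member. Smaller changes and shared cultures were not covered.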

Additional observations from a re-analysis of the deposited data

Results flagged for a closer look

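On 6 of 160 occasions, a group of 4 arrays held 1 array far from the other 3 of its group for a member, which is near the 1 in 20 that chance gives. Cd14 was 17.57 on the LPS array of MK2-/- replicate 3, against 17.96 to 17.99 on the others. Tirap was 10.51 on the LPS array of MK2/3-/- replicate 4, against 10.95 to 11.03. Tnfaip3 was 10.43 on the medium array of wt replicate 2, against 10.11 to 10.14. Tnip1 and Tnip2 both stood out on the LPS array of MK2-/- replicate 2, with 17.83 against 17.47 to 17.51 and 11.91 against 11.32 to 11.38. Tollip was 8.8 on the medium array of MK2/3-/- replicate 2, against 8.46 to 8.51.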

How the results depend on the processing

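Over the processing settings tried, 18 to 27 members were called for LPS in wt, 20 to 25 in MK2-/- and 21 to 26 in MK2/3-/- BMDM, and leaving out each array in turn gave 20 to 25, 19 to 23 and 21 to 25. Apart from these omissions, entries called for LPS over the settings ran from 3014 to 5733 in wt BMDM. They ran from 3777 to 6169 in MK2-/- and from 4679 to 8038 in MK2/3-/- BMDM. The methods' t-test with adjustment called 18, 21 and 21 members, where 3014, 3777 and 4679 entries were called. The main fit called 4460, 4837 and 6474 entries. MK2/3-/- against wt BMDM after LPS gave 0 called members, in place of Tnip3, with the mean over all probes, with the probe of highest mean signal, with only the compared groups in the fit and with the methods' t-test, and 0 to 2 members when an array was left out. Irak4 was the second, called without wt LPS replicate 3 alone (0.51, adjusted p = 0.0469, limma). The other genotype comparisons and the interactions gave 0 to 0. Tollip turned round with the probe of highest mean signal, to -0.12, -0.10 and -0.03 in wt, MK2-/- and MK2/3-/- BMDM. With culture as a replicate block 27, 24 and 26 members were called for LPS in the 3 genotypes, adding Tab3, Tbk1 and Tnip2 in wt, Tirap and Ikbkg in MK2-/- and Tab3 in MK2/3-/- BMDM, and the block changed no call between genotypes (Tnip3 adjusted p = 0.0424). Scaling to the 75th percentile moved the median of all entries from 0.01 to 0.15 in MK2/3-/- against wt BMDM after LPS, where Tnip3 was then 1.16 (adjusted p = 0.0275). With the preparation letter as a replicate block across genotypes, an alternative chosen after seeing the data, 2 members were called between MK2/3-/- and wt BMDM after LPS, Tnip3 and Traf6, and in the other 5 comparisons between genotypes and the 3 interactions 0. For LPS it called 27, 24 and 26, against 22, 23.3 and 29.8% of entries. Over 12570 genes well above background, deviations of arrays that share letter and treatment across genotypes correlated at -0.113 to 0.819, with a median of 0.373. Of these 22 pairs 17 were over 0.1. For the 66 pairs of different letters the median was -0.118 (-0.734 to 0.462). The main genotype tests did not use the letters as pairs, because the sources used here do not state what a letter marks. A pairing that these tests ignore was therefore not excluded. The slide could not be used as a block between genotypes. Signals near background limit the Traf2 values.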
